A study of Mus musculus with 6 samples.

Results

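The E proteins and the Id proteins were followed in mouse thymocytes sorted at DN1, the first double-negative stage. The set holds 6 genes, Tcf3, Tcf4, Tcf12, Id1, Id2 and Id3, out of 24318 gene symbols in the tables. They were chosen by name, and each was matched by its symbol in all 6 libraries. The series compared 3 libraries labelled Tle134-deficient, read here as lacking Tle1, Tle3 and Tle4, with 3 WT libraries. Both groups were labelled as mice 5 to 8 weeks old, and both were sorted as CD44+ cells lacking CD25, CD8a, TCRb and lineage markers. The labels do not name the promoter or Cre line behind the deletion, and whether libraries came from different mice is not stated. The p-values therefore measure the spread between libraries, which may be technical.

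E proteins are basic helix-loop-helix transcription factors that bind E-box sites in DNA as dimers. Tcf3 encodes the E2A proteins E12 and E47, Tcf12 encodes HEB, and Tcf4 encodes E2-2, which is distinct from the Wnt-pathway factor Tcf7l2 that has also been called TCF4. Id proteins keep the helix-loop-helix segment and lack the basic region, so they pair with E proteins and hold them off DNA. In the thymus E2A and HEB drive the T-lineage programme, E2-2 is best known from plasmacytoid dendritic cells and B cells, Id2 from innate lymphoid, NK and dendritic cells, and Id3 from T cells that have received a receptor signal.

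The targeted genes were read first. Tle1 was at 11.5, 11.3 and 11.1 FPKM (fragments per kilobase, relative to the mapped total of the same library) in the libraries labelled Tle134-deficient, against 1.37, 1.19 and 3.61 FPKM in WT. Tle3 averaged 72.9 ± 12.6 FPKM across the labelled-deficient libraries and 28.5 ± 6.56 FPKM in WT, and Tle4 averaged 26.9 ± 8.73 FPKM in the labelled-deficient libraries and 17.1 ± 2.25 FPKM in WT (SD, n = 3 each). All 3 means went against the direction of the label, and Tle1 and Tle3 did not overlap between the groups. Reads from exons that a deletion spares also count toward a locus, so the levels are only a partial check of the labels. The source of the higher levels was not tested, nor was whether the labels were exchanged. Every direction given here follows the labels as deposited. The sort was also read: Cd44 was at 32.5 to 74.3 FPKM across the labelled-deficient libraries and 27.5 to 53.4 FPKM in WT. Cd8a was at 0 to 0.419 FPKM in labelled-deficient libraries and at 0.274 to 2.48 FPKM in WT. Il2ra, which encodes CD25, was at 4.22 to 7.37 FPKM across the labelled-deficient libraries and 1.69 to 3.59 FPKM in WT. The deposited FPKM intervals correspond to about 1.42e+06 to 4.34e+06 fragments per library in loci with a gene symbol, if each bound lies 2 SD of a fragment count from the value.

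Tcf4 was the member with the largest difference between the groups. It lies on chromosome 18 (69504146 to 69847807, mm9) and was measured at 37.1, 35.6 and 24.0 FPKM in labelled-deficient replicates 1 to 3, against 5.99, 18.3 and 8.12 FPKM in WT replicates 1 to 3. The groups did not overlap. The closest pair, labelled-deficient replicate 3 and WT replicate 2, had deposited intervals of 21.4 to 26.6 and 15.5 to 21.1 FPKM, which did not meet. The means were 32.2 ± 7.15 FPKM across the labelled-deficient libraries and 10.8 ± 6.59 FPKM in WT (SD, n = 3 each), a ratio of 2.98. After log2(FPKM + 1), a transform that shrinks differences between low values, the difference was 1.61 ± 0.47 (SE; 95% interval 0.56 to 2.66). It did not pass the threshold of 0.05 over the 11063 genes tested (limma adjusted p = 0.211, unadjusted 0.00672). An exact two-sided permutation test of 3 against 3 libraries gave p = 0.1, the smallest this design allows. The same fit called 0.75% of the genes tested, 0.642% higher and 0.108% lower in the labelled-deficient libraries. An unadjusted p under 0.05 was reached by 10% of them, and 353 genes had a p as small as that of Tcf4 or smaller. Groups that did not overlap were seen for 15.2% of the genes tested, with 8.67% of the genes tested higher in every labelled-deficient library, so the separation seen for Tcf4 was shared with many genes. WT replicate 1 held about 11.9 fragments of Tcf4 by the width of its interval, against 171 to 405 in the other libraries, and its value was the least precise. The 405 belonged to WT replicate 3, at 8.12 FPKM. It was the most of any library, above 295, 403 and 336 in labelled-deficient replicates 1 to 3. Fragments and FPKM thus ranked the libraries differently. WT replicate 3 and labelled-deficient replicate 2 had similar inferred totals in loci with a symbol, about 3.24e+06 and 3.16e+06 fragments. They also had similar Tcf4 fragments, 405 and 403, yet their Tcf4 values were 8.12 and 35.6 FPKM. In fragments of Tcf4 the groups overlapped, so their separation is one of FPKM only, and the reason was not tested.

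**Figure D1:**
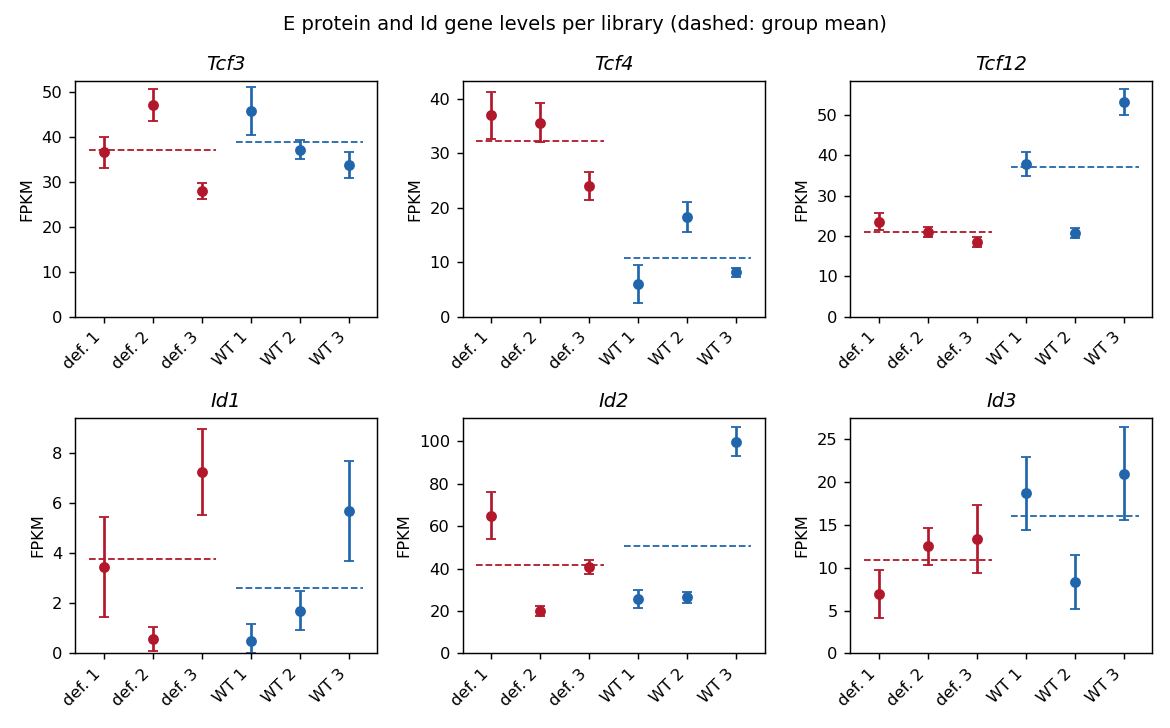
FPKM of each E protein and Id gene in labelled-deficient replicates 1 to 3 (red, def.) and WT replicates 1 to 3 (blue). Bars are the deposited lower and upper bounds, dashed lines the group means and each panel has its own scale. Tcf4 is the panel in which the groups do not overlap, with all red points at 24.0 FPKM or more and all blue points at 18.3 FPKM or less.

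Tcf12 lies on chromosome 9 (71687153 to 71959647, mm9). It was at 23.6, 21.1 and 18.5 FPKM across the labelled-deficient libraries and at 37.8, 20.7 and 53.2 FPKM in WT. WT replicates 1 and 3 lay above all labelled-deficient values, and WT replicate 2 lay among them. The log2 difference was -0.70 ± 0.44 (SE; 95% interval -1.68 to 0.28; limma adjusted p = 0.693). The mean was 21.1 ± 2.53 FPKM in the labelled-deficient libraries and 37.2 ± 16.3 FPKM in WT (SD, n = 3 each), and the difference between these spreads was not tested.

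Tcf3 had the closest group means of the 3 E protein genes. It lies on chromosome 10 (79871910 to 79896398, mm9) and was at 36.5, 47.0 and 28.0 FPKM across the labelled-deficient libraries and at 45.8, 37.1 and 33.7 FPKM in WT. Both the highest and the lowest value came from the labelled-deficient group. The means were 37.2 ± 9.56 FPKM in the labelled-deficient libraries and 38.9 ± 6.25 FPKM in WT (SD, n = 3 each), and the log2 difference was -0.08 ± 0.40 (SE; 95% interval -0.98 to 0.82; limma adjusted p = 0.986). The interval leaves room for a change of nearly 1 log2 unit downward.

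The make-up of the E protein transcripts differed more than their sum. Summed over Tcf3, Tcf4 and Tcf12, the level was 97.2, 104 and 70.5 FPKM across the labelled-deficient libraries and 89.7, 76.1 and 95.1 FPKM in WT, and the groups overlapped. Tcf4 made up 38.1%, 34.3% and 34.1% of that sum in the labelled-deficient group, against 6.68%, 24.1% and 8.53% in WT. Tcf12 made up 24.3%, 20.3% and 26.3% in the labelled-deficient group, against 42.2%, 27.1% and 56.0% in WT. Neither share overlapped between the groups, although WT replicate 2 lay within 1 percentage point of labelled-deficient replicate 3 for Tcf12. Shares are parts of 1 sum, so a higher share of Tcf4 lowers the others, and these are not 2 separate results. The FPKM of Tcf12 and its ratio to Tcf3 overlapped between the groups. By FPKM, 15.2% of the genes tested did not overlap, but that is an unlike measure, and no background was computed for shares. A ratio to Tcf12 separated more often, with 21.9% of 9996 other genes higher in every labelled-deficient library. The share of Tcf3 overlapped, at 37.6%, 45.3% and 39.7% in the labelled-deficient libraries and at 51.1%, 48.8% and 35.5% in WT. These are values of a set chosen with earlier results of these data known, and they carry no test.

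The order of Tcf4 and Tcf12 in FPKM differed by group. FPKM is scaled by transcript length, so levels of different genes can be set side by side where the lengths used are right. The ratio of Tcf4 to Tcf12 was 1.57, 1.69 and 1.30 in the labelled-deficient libraries and 0.158, 0.887 and 0.152 in WT. Tcf4 was thus above Tcf12 in all 3 labelled-deficient libraries and below it in all 3 WT libraries. A ratio within a library does not depend on how libraries are scaled, but it does depend on the length used for each gene. By interval width Tcf4 had fewer fragments than Tcf12 in every library. They were about 403 against 1134 in labelled-deficient replicate 2 and 405 against 1071 in WT replicate 3. The order in FPKM thus rests on the lengths used, which were not examined. Of 9996 other tested genes above 0 in every library, 21.9% had a ratio to Tcf12 that was higher in all labelled-deficient libraries than in any WT library. The separation is therefore not particular to Tcf4.

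Id2 was the most abundant Id gene in every library and had the largest SD of the 6 members in both groups. It lies on chromosome 12 (25778664 to 25780957, mm9) and was at 64.8, 19.9 and 40.8 FPKM across the labelled-deficient group, against 25.7, 26.4 and 99.8 FPKM in WT. The lowest value was labelled-deficient replicate 2 and the highest WT replicate 3. The means were 41.9 ± 22.5 FPKM in the labelled-deficient libraries and 50.6 ± 42.6 FPKM in WT (SD, n = 3 each). The log2 difference was -0.12 ± 0.63 (SE; 95% interval -1.53 to 1.30; limma adjusted p = 0.986), and its sign turned on single libraries: it was 0.52 when WT replicate 3 was left out and 0.32 when labelled-deficient replicate 2 was. Id2 made up 86.2%, 60.3% and 66.4% of the summed Id level in the labelled-deficient libraries and 57.3%, 72.5% and 78.9% in WT.

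Id3 lies on chromosome 4 (135699731 to 135701307, mm9). It was at 6.98, 12.5 and 13.4 FPKM across the labelled-deficient libraries and at 18.7, 8.33 and 21.0 FPKM in WT. As for Tcf12, WT replicates 1 and 3 were above all labelled-deficient libraries and WT replicate 2 was not. The log2 difference was -0.46 ± 0.47 (SE; 95% interval -1.51 to 0.59; limma adjusted p = 0.851).

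Id1 was the scarcest member, and its values rest on few fragments. It lies on chromosome 2 (152561987 to 152563146, mm9) and was at 3.44, 0.588 and 7.25 FPKM across the labelled-deficient libraries and at 0.480, 1.69 and 5.70 FPKM in WT. Its deposited intervals correspond to about 1.99 to 71.5 fragments per library. Replicate 3 was the highest of each group. The log2 difference was 0.38 ± 0.75 (SE; 95% interval -1.30 to 2.05; limma adjusted p = 0.953), and it was -0.17 without labelled-deficient replicate 3 and -0.13 without WT replicate 1.

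**Figure D2:**
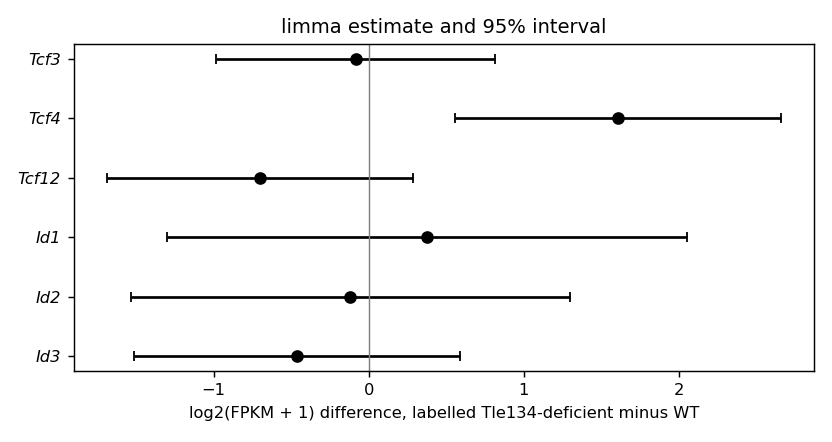
Difference in log2(FPKM + 1) between the libraries labelled Tle134-deficient and WT for each member, from limma across all 11063 genes tested, with its 95% interval. The interval of Tcf4 (0.56 to 2.66) is the one that leaves out 0; after adjustment over all genes none of the 6 passed.

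Set side by side within a group, the members kept the same ends and differed in the middle. By mean FPKM the order in the labelled-deficient libraries was Id2, Tcf3, Tcf4, Tcf12, Id3 and Id1. In WT it was Id2, Tcf3, Tcf12, Id3, Tcf4 and Id1. In the labelled-deficient libraries Tcf4 lay above Tcf12, and Tcf12 above Id3, with ranges that did not overlap. The lowest Tcf4 value there (24.0 FPKM) and the highest Tcf12 value (23.6 FPKM) were close. Their deposited intervals overlapped, at 21.4 to 26.6 and 21.4 to 25.8 FPKM, and the order also depends on the lengths used. In WT only Tcf4 and Id1 were neighbours with separate ranges. Relative to all genes tested in the same library, Tcf3 stood between the 82.3rd and 94.8th percentile and Id2 between the 79.4th and 95.9th. Tcf4 stood at percentiles 88.7, 91.0 and 79.1 in the labelled-deficient libraries and 46.3, 80.1 and 45.2 in WT. Id1 lay between percentiles 4.21 and 42.0.

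The balance of E protein to Id transcripts did not separate the groups. The summed Id level was 75.3, 33.0 and 61.5 FPKM across the labelled-deficient libraries and 44.8, 36.4 and 127 FPKM in WT. The ratio of summed E protein to summed Id FPKM was 1.29, 3.15 and 1.15 in the labelled-deficient group, against 1.9997, 2.09 and 0.752 in WT. The labelled-deficient group held the highest ratio and WT the lowest, which was the library with the most Id2. On the log2 scale the ratio averaged 0.74 ± 0.80 in the labelled-deficient libraries and 0.55 ± 0.83 in WT (SD, n = 3 each), so the difference of 0.19 was smaller than the spread within either group. Without Id2 the ratio was 9.32, 7.93 and 3.42 in the labelled-deficient libraries and 4.68, 7.59 and 3.56 in WT. Without Tcf4 it was 0.799, 2.07 and 0.756 in the labelled-deficient libraries, against 1.87, 1.59 and 0.687 in WT. All 3 versions overlapped between the groups. Transcript ratios are not protein ratios, and no protein was measured. Of the 9 ratios of one E protein gene to one Id gene, 0 separated the groups. The 9 ratios reuse the same genes, and no background was computed for such ratios. For single genes by FPKM, an unlike measure, 15.2% separated, so this count is not a result about the members.

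**Figure D3:**
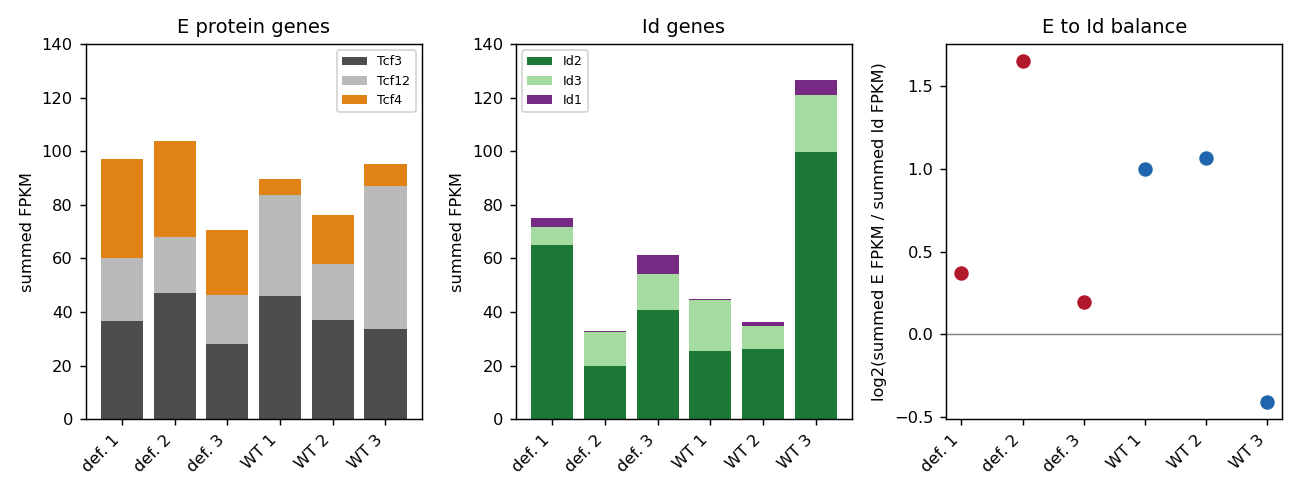
Left and middle, FPKM of the E protein genes and of the Id genes stacked to their sum, per library (def., labelled Tle134-deficient). Right, log2 of the ratio of the sums (red, labelled-deficient; blue, WT). The Tcf4 part is 34.1% to 38.1% of the E protein sum in the labelled-deficient libraries and 6.68% to 24.1% in WT, while the log2 ratios of the groups overlap.

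The genes that work with E and Id proteins were read in 4 lists (dimer partners, other helix-loop-helix factors, cofactors and upstream signals), none of which held a call. None of 5 tested dimer partners and LIM cofactors passed, with a median log2 difference of 0.06 against 0.04 over all genes tested. The smallest p belonged to Lmo2, which encodes a LIM protein that bridges Tal1 or Lyl1 to E proteins. It was at 42.6, 39.7 and 79.3 FPKM across the labelled-deficient group, against 6.84, 16.3 and 20.9 FPKM in WT, without overlap (log2 difference 1.86; limma adjusted p = 0.166). Tal1 and Tal2 were too low to be tested. Among other helix-loop-helix factors 0 of 3 tested passed. Bhlhe40, a transcriptional repressor of activated lymphocytes and the circadian clock, was at 53.3, 77.3 and 32.6 FPKM across the labelled-deficient libraries and at 7.95, 14.3 and 10.2 FPKM in WT (log2 difference 2.18; limma adjusted p = 0.0673, and 0.0422 with library weights, which makes it the list's 1 call). Id4 was below 1 FPKM in all libraries.

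Of 6 tested coactivators and corepressors of E proteins 0 passed (median log2 difference -0.14). Cbfa2t2, of the ETO corepressor family, had the smallest p and overlapped between the groups. The acetyltransferase gene Ep300 was at 20.3 to 24.3 FPKM across the labelled-deficient libraries and at 15.0 to 26.5 FPKM in WT. Of 11 tested genes upstream of Id transcription, which belong to the BMP and TGF-beta pathways and the Egr family, 0 passed (median 0.02). Egr3, a factor induced by receptor signalling, had the smallest p and was at 12.2, 20.0 and 5.54 FPKM across the labelled-deficient group, against 0.980, 5.997 and 4.15 FPKM in WT.

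Genes known to need E proteins were read as a T-lineage and a B-lineage list. Of 9 tested genes of T-cell progenitors, 1 rose, 1 fell and 7 did not pass, with a median log2 difference of -0.20. Over all genes tested, 0.642% were called higher and 0.108% lower. Dntt, which encodes the terminal transferase of lymphoid progenitors, fell to 15.9, 5.98 and 1.99 FPKM across the labelled-deficient group, against 93.3, 207 and 257 FPKM in WT (log2 difference -4.60; limma adjusted p = 0.0279). Cxcr4, the receptor for CXCL12, rose to 75.7, 82.9 and 97.8 FPKM in labelled-deficient libraries, compared with 17.5, 19.8 and 19.8 FPKM in WT (log2 difference 2.104; limma adjusted p = 0.0431). Neither gene overlapped between the groups. The call of Cxcr4 was lost whichever single library was left out, and that of Dntt without labelled-deficient replicate 1 or 2 or WT replicate 1 or 2. Rag1, a recombinase subunit, was at 4.56, 2.59 and 1.46 FPKM across the labelled-deficient libraries and at 1.27, 1.36 and 4.38 FPKM in WT. Ptcra, which encodes the pre-TCR alpha chain, reached at most 1.38 FPKM in any library and was not tested.

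Of 11 tested E-protein-dependent genes of B-cell progenitors, 6 rose, among them Cd79b, Cd79a, Pax5, Ebf1 and Blnk, 0 fell and 5 did not pass. The background for higher calls was 0.642% of genes, and the list's median log2 difference was 2.80. Cd79b, a signalling chain of the B-cell receptor, was at 202, 110 and 111 FPKM in labelled-deficient libraries, compared with 9.09, 6.50 and 23.0 FPKM in WT (limma adjusted p = 0.0279). Vpreb1 and Igll1, the surrogate light chain genes of early B-cell stages, stayed below 4.5 FPKM in all libraries. Vpreb1 overlapped between the groups and was highest in WT replicate 1, at 4.44 FPKM. Igll1 did not overlap, at 1.58, 1.29 and 1.42 FPKM in labelled-deficient libraries and 0, 0.392 and 0 FPKM in WT. Vpreb3 overlapped, at 18.4, 5.69 and 4.48 FPKM in labelled-deficient libraries and 7.90, 0 and 0 FPKM in WT. None of these passed (limma adjusted p = 0.979 for Vpreb1, 0.377 for Igll1 and 0.451 for Vpreb3). The list's 6 calls became 0 without labelled-deficient replicate 1 or 2 or WT replicate 1 or 2, 4 without labelled-deficient replicate 3 and 5 without WT replicate 3. The B-lineage shift in these tables was known when the list was drawn up.

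Like Tcf4, B-cell markers were higher in the labelled-deficient libraries, and their part in the Tcf4 difference was not tested. In a bulk library fewer cells of a type and less RNA per cell cannot be told apart. Of 7 tested markers of mature B cells, which also express Tcf4, 4 rose and 0 fell, among them Cd22, an inhibitory coreceptor (61.2, 65.1 and 40.3 FPKM across the labelled-deficient group, against 1.99, 2.72 and 1.34 FPKM in WT; limma adjusted p = 0.0154). Fcer2a, the low-affinity IgE receptor, also rose (62.9, 41.9 and 30.6 FPKM in labelled-deficient libraries, compared with 1.78, 0.680 and 3.45 FPKM in WT). By replicate their summed level was 597, 402 and 319 FPKM across the labelled-deficient group, the same order as Tcf4, and 55.0, 79.5 and 86.3 FPKM in WT, where Tcf4 was highest in replicate 2. The Tcf4 intervals of labelled-deficient replicates 1 and 2 overlapped (32.7 to 41.4 and 32.1 to 39.2 FPKM), so the order of Tcf4 there is not settled. Higher calls were made for 0.642% of all genes tested. No marker was at 0 in all libraries. Those 4 calls became 0 without labelled-deficient replicate 1 or 2 or WT replicate 1, 1 without WT replicate 2, 2 without labelled-deficient replicate 3 and 5 without WT replicate 3.

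Of 11 plasmacytoid dendritic cell genes, 1 rose, 0 fell and 10 did not pass, and 9 of the 11 log2 differences were above 0. Over all 11063 genes tested, 5829 differences were above 0, and 0.642% were called higher and 0.108% lower. By replicate the list summed to 218, 205 and 153 FPKM across the labelled-deficient libraries. That was the order of Tcf4, whose intervals in labelled-deficient replicates 1 and 2 overlapped. In WT the list summed to 55.9, 79.9 and 106 FPKM, which was not the order of Tcf4, highest there in replicate 2. The gene that rose was Spib, an Ets factor also expressed in B cells (38.6, 29.1 and 21.0 FPKM in labelled-deficient libraries, compared with 1.53, 1.94 and 4.17 FPKM in WT; limma adjusted p = 0.0279). The call of Spib was lost without labelled-deficient replicate 1 or 2 or WT replicate 1 or 2. Siglech, a surface marker more restricted to these cells, was at 3.54, 1.93 and 0.362 FPKM across the labelled-deficient libraries and at 8.38, 0.233 and 0 FPKM in WT.

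For the Id genes the relevant markers are those of innate lymphoid and NK cells, gamma-delta T cells and conventional dendritic cells. With 0.642% of all genes called higher and 0.108% lower, 0 of 9 tested innate lymphoid and NK genes rose and 1 fell. It was Tox, which encodes an HMG-box protein needed by developing T cells and innate lymphoid cells, at 5.71, 4.81 and 1.49 FPKM across the labelled-deficient libraries and at 32.0, 31.2 and 43.5 FPKM in WT (limma adjusted p = 0.0279). That call was lost whichever single library was left out. By replicate the list summed to 116, 79.6 and 57.7 FPKM across the labelled-deficient libraries and 158, 105 and 213 FPKM in WT. The library with the most Id2 in each group had the highest sum, while the order of the remaining pair differed from that of Id2 in both groups. The NK receptor genes Ncr1 and Klrb1c were at or near 0, at most 0.153 and 1.79 FPKM. Of 8 tested gamma-delta T-cell genes 1 fell (5830411N06Rik, a scavenger receptor gene; limma adjusted p = 0.0353) and 0 rose. That call, too, was lost whichever single library was left out. The sums overlapped, at 87.4 to 239 FPKM across the labelled-deficient libraries and 211 to 337 FPKM in WT. Of 6 tested conventional dendritic cell markers 0 passed, Ccr7 had the smallest p (limma adjusted p = 0.24), and the sums were 34.5 to 72.9 FPKM in labelled-deficient libraries and 24.8 to 32.5 FPKM in WT.

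The sum of myeloid markers set labelled-deficient replicate 3 apart, at 1099 FPKM, against 76.2 and 88.8 FPKM in labelled-deficient replicates 1 and 2 and 109 to 399 FPKM in WT. Most of that sum was Mpo (589 FPKM) and S100a9 (333 FPKM). Itgam and Fcgr3 were also highest there, while Lyz2 and S100a8 were highest in WT replicate 3. Labelled-deficient replicate 3 also had the highest Id1 and the lowest Tcf3 and Tcf12 of all libraries and the lowest Tcf4 of its group. A link between these was not tested. None of 5 tested myeloid markers passed, and Itgam had the smallest p. Without labelled-deficient replicate 3 the log2 difference of Tcf4 was 1.80 (limma adjusted p = 0.236). Of 6 tested stromal and endothelial markers Pdgfrb fell (2.38, 2.40 and 3.63 FPKM across the labelled-deficient group, against 15.0, 22.1 and 14.8 FPKM in WT; limma adjusted p = 0.0469), a call lost whichever single library was left out. Lower calls were made for 0.108% of all genes tested. The sums of the stromal and endothelial list overlapped, at 37.8 to 64.4 FPKM in labelled-deficient libraries and 61.9 to 136 FPKM in WT. None of 7 tested genes of the gate and of progenitors passed, and Cd24a had the smallest p (limma adjusted p = 0.426).

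**Figure D4:**
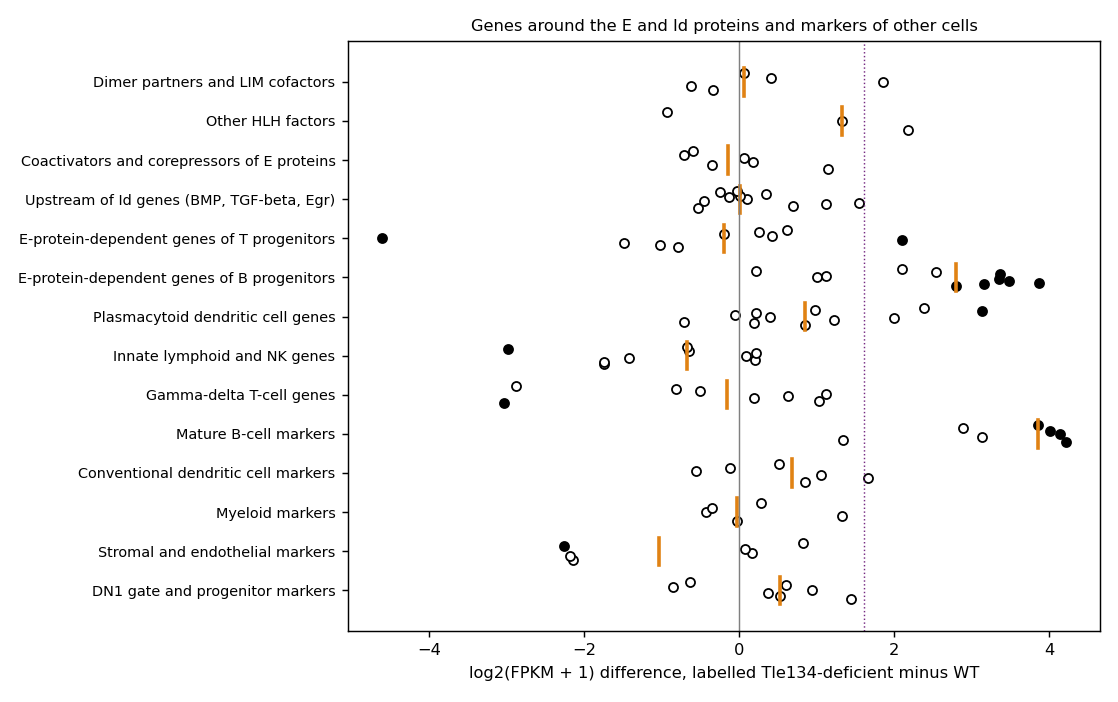
Difference in log2(FPKM + 1), labelled Tle134-deficient minus WT, of each tested gene in the 14 lists (circles; filled where the limma adjusted p is under 0.05), with the list median as an orange bar and the value of Tcf4 (1.61) as a dotted line. Filled circles on the right are mostly B-lineage genes, whose 2 lists have medians of 2.80 and 3.86.

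The genes whose pattern was most like that of each member were listed by Pearson r of log2(FPKM + 1) over the 6 libraries. With 6 points high values are common: between 8 (Tcf3) and 77 (Id1) of 11057 other genes reached 0.95. For Tcf4 they were Phf1, which encodes a Polycomb-associated protein (r = 0.991), and Btbd19 (r = 0.984). Phf1 was at 15.6, 13.7 and 10.3 FPKM across the labelled-deficient libraries and at 2.53, 6.26 and 3.61 FPKM in WT, and like Tcf4 it was highest within WT in replicate 2. For Tcf12 they were Lnx2 (r = 0.995) and Chid1 (r = 0.993), and for Tcf3 the one reported here was Med24 (r = 0.974). Id2 was followed most closely by Mppe1 (r = 0.994) and by the locus shared by Ndufa10 and Mir6900 (r = 0.993). The closest to Id1 were Alg6 (r = 0.994) and the locus shared by Tsr1 and Snord91a (r = 0.992), and to Id3 Hspb11 (r = 0.982) and Lhfpl2 (r = 0.980).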

How the data were processed

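The deposited tables, 1 per library, give FPKM with its interval bounds per locus, computed by the authors, in the layout of a Cufflinks gene table per the file headers. Trimmomatic 0.38, TopHat2 2.1.1, featureCounts 2.0.1 and the build mm9 are named, with no role, in the submitters' processing notes. Neither the gene annotation nor a Cufflinks version nor strand use is given in those sources. Total reads are not given, and fragments were inferred from interval widths, covering counting error only.

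FPKM of rows with a symbol were summed, and symbols sharing a locus were joined (24318 symbols, 23401 units). Each of the 6 members had 1 row of its own in every library. Units with at least 1 FPKM in 3 libraries were tested with limma 3.58.1 (R 4.3.3) on log2(FPKM + 1) with group as the only term, a trend and a robust step, and Benjamini-Hochberg adjustment (threshold 0.05). All 6 members passed this filter. Tables were joined with Python 3.11.15 and pandas 2.3.3. A list gene that shares a locus with a gene outside its list was left out. Starts were raised by 1. Beside the members and Tle genes, the text names the 2 genes most correlated with each member (predicted genes left out) and, per list, up to 2 called genes by p, or the first by p where none was called. Other list genes, such as Ep300, Rag1 and Siglech, were chosen after their values were seen. Some genes that this rule names are not reported here. The members and lists were chosen with earlier results of these data known. Alternatives covered pseudocount, filter, scaling, variance model, row handling, a replicate block and leaving out libraries.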

Additional observations from a re-analysis of the deposited data

How the results depend on the processing

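None of the 6 members passed the threshold under any alternative, and Tcf4 (adjusted p 0.133 to 0.543), Tcf12 and Id3 kept their direction under all of them. Leaving out 1 library at a time gave log2 differences of 1.30 to 2.03 for Tcf4, -1.06 to -0.40 for Tcf12, -0.85 to -0.19 for Id3, -0.26 to 0.10 for Tcf3, -0.17 to 1.02 for Id1 and -0.50 to 0.52 for Id2. With limma arrayWeights Id2 was at 0.077, and among the most correlated genes Med24 was at 0.0067, Ndufa10/Mir6900 at 0.087 and Mppe1 at 0.033. When single libraries were left out, the range was -0.10 to 0.45 for Alg6, -0.080 to 2.13 for Itgam, -0.16 to 0.16 for Med24, -0.093 to 0.43 for Tsr1/Snord91a, -0.28 to 0.37 for Ndufa10/Mir6900 and -0.35 to 0.28 for Mppe1. The cause was not tested. The summed E protein difference ranged from -3.10 to 13.5 FPKM, the summed Id difference from -29.1 to 16.0 FPKM, the log2 ratio difference from -0.29 to 0.46, the Tcf4 share from 19.2 to 27.9 percentage points and the Tcf4 to Tcf12 ratio from 0.996 to 1.36. Over all genes, 71 were called higher and 12 lower. Leaving out 1 library gave 0 to 56 higher and 0 to 11 lower, with 0 of either without labelled-deficient replicate 1 or 2 or WT replicate 1 (limma, 951, 956 and 877 genes at an unadjusted p under 0.05). Without a filter on low values 0 and 0 were called (1181 at an unadjusted p under 0.05). A pseudocount of 0.1 gave 3 lower, a fit with neither trend nor robust step 4 lower, arrayWeights 20 lower, and rows naming 1 gene only gave 42 higher and 6 lower. Upper-quartile scaling moved the median of all genes to -0.09, against 0.04. The main fit did not pair libraries by replicate number. Correlations of deviations were 0.084, 0.182 and 0.174 for numbers 1 to 3, and every library correlated best with its own number, so a pairing remains possible. The calls of Dntt, Cxcr4, Spib, Tox, 5830411N06Rik and Pdgfrb were lost without the filter and with a replicate block, and those of Cxcr4, 5830411N06Rik and Pdgfrb also at a pseudocount of 0.1, with neither trend nor robust step and with rows naming 1 gene only. With a replicate block 1 gene was higher and 1 lower, and Tcf4 had an adjusted p of 0.191. Depth limits Id1 and the WT replicate 1 value of Tcf4 most.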
